A study of Mus musculus with 23 samples.

Results

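Transcripts of 33 enzymes and transporters of glycolysis, lactate, pyruvate entry, glycogen and the pentose phosphate pathway were measured in astrocytes of the mouse cerebral cortex. They were taken by symbol from the 24411 genes of the count table, and the list was chosen with earlier results of these data known. They comprise 14 genes of glycolysis, 3 of lactate, 7 of pyruvate entry into the mitochondrion, 4 of glycogen and 5 of enzymes that serve the supply of NADPH (G6pdx, Pgd, Tkt, Taldo1 and Me1), which were described apart from the other 28.

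RNA came from cells held by magnetic beads against the astrocyte surface antigen ACSA-2 (MACS), with 1 library per sample and 23 libraries in all. All mice carried Aldh7a1 flox/flox, received 4-hydroxytamoxifen at postnatal days 3 to 4 and were labelled male, and cortex was taken at postnatal day 70. ConAstro mice (n = 4) had no Cre, and cKOAstro mice (n = 7) carried a tamoxifen-inducible Cre at 1 allele of Slc1a3, so that Cre acts in cells that express Slc1a3 and that allele is altered in every cKOAstro mouse. From postnatal day 21 these groups ate control chow, while SFN-fed ConAstro mice (n = 5) and SFN-fed cKOAstro mice (n = 7) ate chow that contained sulforaphane, abbreviated SFN, which activates NRF2, a regulator of antioxidant genes. Aldh7a1 encodes a dehydrogenase of lysine breakdown and of reactive aldehydes, and the question for these genes was whether its loss, or SFN, changed the transcripts of glucose metabolism.

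Astrocytes take up glucose, store part of it as glycogen and turn much of it into lactate, which neurons can use. Glucose 6-phosphate can also enter the pentose phosphate pathway, whose oxidative steps make the NADPH that keeps glutathione reduced. Several genes of that pathway and malic enzyme are known targets of NRF2, which binds antioxidant response elements. Pyruvate that is not made into lactate enters the mitochondrion through pyruvate dehydrogenase, which pyruvate dehydrogenase kinases switch off, or through pyruvate carboxylase.

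Depth and purity bear on every value. Counts summed to between 46890715 and 391701247 per library, and a member other than Eno1 had at least 380 counts in every library. Totals of ConAstro (74771451 to 84049525) all lay below those of cKOAstro (107847897 to 391701247). They also lay below those of SFN-fed cKOAstro (86276988 to 140464734). Depth thus cannot be told apart from group in those comparisons. Levels are given in counts per 1000000 (CPM) after trimmed mean of M values (TMM) scaling. Aldh7a1, the targeted gene, lay between 207 and 220 CPM in ConAstro, 45.9 and 77.2 CPM in cKOAstro, 177 and 226 CPM in 4 SFN-fed ConAstro libraries and 43.0 and 56.5 CPM in 6 SFN-fed cKOAstro libraries. There were 2 libraries that went against their labels, the one labelled SFN-fed ConAstro replicate 1 with 55.7 CPM and the one labelled SFN-fed cKOAstro replicate 2 with 222 CPM. They are called the discordant libraries, and SFN results are also given without them. Of the 23, 1 library, cKOAstro replicate 2, did not match its labelled sex. Without it none of the 33 genes passed an adjusted p of 0.05 in the 3 comparisons that use it by edgeR, and the X-linked genes G6pdx, Pdha1 and Pgk1 had log2 fold changes of -0.08, 0.04 and 0.01 for genotype on control chow and of 0.06, -0.06 and 0.05 for SFN in cKOAstro. Library names fell in 2 series, numbered and beginning with Astro, and 2 cKOAstro, 1 SFN-fed ConAstro, 3 SFN-fed cKOAstro and no ConAstro libraries had the latter. The discordant library of SFN-fed cKOAstro is numbered, so it stays in results of the numbered libraries alone. That of SFN-fed ConAstro is of the Astro series. Numbered names begin with a number as prefix, and ConAstro shared no prefix with cKOAstro or SFN-fed ConAstro. The numbered cKOAstro and numbered SFN-fed cKOAstro libraries shared none either. In those comparisons, the last of them among numbered libraries alone, group and prefix cannot be told apart. What the prefix stands for is not given. The 10 astrocyte markers were present in every library (summed level 11992 to 23289 CPM), but the 10 oligodendrocyte markers summed to more (23788 to 61050 CPM) and the 10 microglial markers to 348 to 3742 CPM. The preparations thus held RNA of other cells, and in such bulk RNA fewer cells of a type and less RNA per cell cannot be told apart.

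The 33 genes together took 5690 to 7702 CPM, and 28 of them differed by less than 2-fold between the lowest and highest of the 23 libraries. Per kilobase of exon, the highest median was that of Ldhb (308 CPM per kb), the lactate dehydrogenase subunit that favors the use of lactate, and Ldha, the subunit that favors its production, had 41.4 CPM per kb. Aldoa (aldolase A) followed with 234, Pfkm (muscle type phosphofructokinase) with 148, Gapdh (glyceraldehyde 3-phosphate dehydrogenase) with 148 and Pkm (pyruvate kinase) with 138 CPM per kb. Over the libraries Ldhb ran from 250 to 403 and Aldoa from 195 to 285 CPM per kb, so these ranges overlapped. Those of the last 3 genes overlapped too. Overlap between libraries does not give the order within a library. Length was that of all annotated exons of a gene merged (1570 bases for Ldhb, 3310 for Ldha, 3710 for Aldoa). The order depends on it. In CPM not divided by length, Aldoa (723 or more) stood above Ldhb (633 or less) in every library. Ldhb (393 or more) stood above Ldha (189 or less) by either measure. Among NADPH genes the medians per kb of exon were 117 for Taldo1, 53.6 for Tkt, 21.8 for G6pdx, 16.2 for Me1 and 9.31 for Pgd. Hexokinase 1 (Hk1, 24.4 CPM per kb) stood above hexokinase 2 (Hk2, 2.29 CPM per kb) in every library. The lactate exporter Slc16a3, also called MCT4, had the lowest usable median, 1.39 CPM per kb. Eno1 (enolase 1) had 11 to 99 counts per library beside 9 to 84 counts for Eno1b, its near-identical copy. Reads that match both copies are not assigned to either when only unique matches are counted, so the Eno1 count does not give the level of enolase 1, and it is left out of what follows except where all 33 genes are counted.

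**Figure D1:**
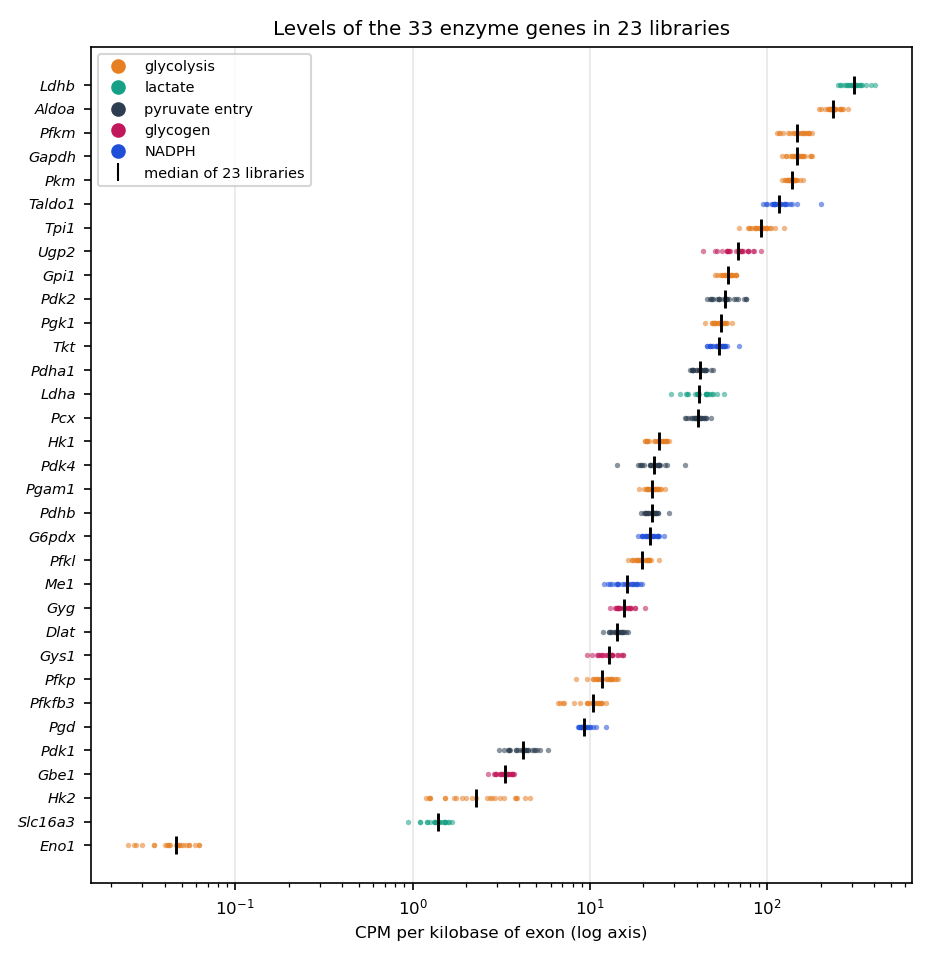
CPM per kilobase of exon (log axis) of the 33 genes, ordered by median; each point is 1 of 23 libraries and each bar the median. Levels span from 308 for Ldhb to 1.39 for Slc16a3, with the unusable Eno1 count below, and Hk2 has the widest spread of the other genes.

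Because NRF2 can raise the NADPH genes, promoters were searched for the core of the antioxidant response element. The letters TGACNNNGC, on either strand, occurred between 250 bases before and 50 bases after the start in 12.4% of 32851 RefSeq promoters (GRCm38.p6), and in a promoter of 14% of 27025 genes. All 33 genes had a promoter in the table and 6 held the letters, 3 of 5 NADPH genes and 3 of the other 28. The matches are shown on the strand of the gene, with 10 bases on each side and the match in capitals:

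G6pdx: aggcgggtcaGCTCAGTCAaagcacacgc

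Pgd: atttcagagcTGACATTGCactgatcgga

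Me1: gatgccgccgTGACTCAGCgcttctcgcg

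Pdhb: cctactattgGCTGCGTCAgacgggctct

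Aldoa: ccacattccgGCTGAGTCAcgatgttcgc

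Hk1: ccaccacgcgTGACCGCGCgctccttacg

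All 6 genes lie on the minus strand. The windows were chrX:74428919-74428947 for G6pdx, whose match begins 57 bases before the start of transcription, chr4:149166061-149166089 for Pgd and chr9:86695902-86695930 for Me1, both of which reach past the start. Those of the other genes were chr14:8172982-8173010 for Pdhb, chr7:126799456-126799484 for Aldoa and chr10:62340412-62340440 for Hk1. In 2 of the 6, Me1 and Aldoa, the match overlapped TGACTCA, the letters bound by AP-1. No match was found in these windows for Tkt and Taldo1. The letters ACGTG of the hypoxia response element occurred in a promoter of 18 of the 33 genes and of 21.8% of all genes. A match gives letters and not a bound site.

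Loss of Aldh7a1 on control chow left all 33 genes without a call. The comparison of cKOAstro with ConAstro asked what the deletion does without SFN. None of the 33 genes passed an adjusted p of 0.05 (edgeR quasi-likelihood test with Benjamini-Hochberg adjustment over 17406 genes, of which 0.023% passed), and none had an unadjusted p under 0.05 (3.74% of all genes tested). The lowest unadjusted p was 0.108, for Pcx, pyruvate carboxylase, the enzyme that lets astrocytes make oxaloacetate for new glutamine, at 199 ± 16.4 CPM (SD, n = 4) in ConAstro and 185 ± 13.6 CPM (SD, n = 7) in cKOAstro. Log2 fold changes lay between -0.20 for Pdk4 and 0.14 for Pdk2, kinases that act on the same complex. Of the 33 genes 9 lay above 0 and 24 below, with a median of -0.03 against -0.01 over all genes tested, where 47.6% lay above 0. DESeq2 and limma-voom called none of the 33 either. The direction of these small differences moved with the fit, since leaving out 1 library at a time gave 4 (without cKOAstro replicate 6) to 18 (without ConAstro replicate 4) of 33 above 0. The median of the 28 genes other than the NADPH genes turned to 0.02 without ConAstro replicate 4. All ConAstro libraries were of the numbered series, and against the 5 numbered cKOAstro libraries alone 14 of 33 genes lay above 0. None had an unadjusted p under 0.05 (3.25% of all genes). These 5 libraries shared no name prefix with ConAstro. Of vessel and connective tissue markers, 10 of 10 endothelial markers were lower in cKOAstro (5 at an unadjusted p under 0.05, median log2 fold change -0.48). Mural (7 of 8) and fibroblast (6 of 7) markers mostly lay higher. All 10 microglial markers lay lower (0 at an unadjusted p under 0.05, median -0.24) and 9 of 10 neuronal markers higher (0). Lower too were all 12 listed genes of the response to dissociation, Fos and Hspa1a among them. Of these, 3 had an unadjusted p under 0.05 (2.03% of all genes were lower at that level). The part of depth, name prefix, dissociation and these cells was not tested.

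The NADPH genes were close to each other in the 2 groups. G6pdx, glucose 6-phosphate dehydrogenase, which makes the first NADPH of the pathway, was measured at 66.3, 74.3, 62.0 and 74.4 CPM in ConAstro. In cKOAstro it ran from 57.4 through a median of 64.0 to 74.0 CPM, so that the groups overlapped. It differed by -0.09 ± 0.07 on the log2 scale (SE, adjusted p = 0.981, edgeR). Me1, cytosolic malic enzyme, which makes NADPH from malate, was measured at 63.5, 67.5, 60.1 and 69.6 CPM in ConAstro. In cKOAstro it ran from 48.6 through 55.6 to 71.2 CPM, and the log2 fold change was -0.16 ± 0.10 (adjusted p = 0.981, edgeR). Here too the groups overlapped, with the highest library of all in cKOAstro. Pgd, 6-phosphogluconate dehydrogenase, which makes the second NADPH, Tkt, transketolase, and Taldo1, transaldolase, had log2 fold changes of -0.01, -0.03 and -0.00. Transketolase and transaldolase shuffle carbon between pentoses and glycolysis and make no NADPH themselves. All 5 NADPH genes thus lay below 0, none past a test.

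SFN in ConAstro mice gave the comparison of diets with Aldh7a1 intact. None of the 33 genes passed an adjusted p of 0.05 (edgeR, Benjamini-Hochberg over 16509 genes, 0% of which passed), and none with DESeq2 or limma-voom. Of the 33, 3 had an unadjusted p under 0.05 (6.54% of all genes tested), all lower in SFN-fed ConAstro (3% of all genes were lower). In all, 12 of 33 lay above 0 (48.4% of all genes). The NADPH genes had a median log2 fold change of 0.00, with 3 of 5 above 0, the other 28 genes of -0.03, and all genes tested of -0.01. Of the 10 NRF2 targets listed apart from these 33 genes (Nqo1, Gclc and Gclm among them), none had an unadjusted p under 0.05 either, with a median of 0.05. Higher in SFN-fed ConAstro were 10 of 10 endothelial markers (2 at an unadjusted p under 0.05, median log2 fold change 0.57). So were 7 of 7 fibroblast markers (6, median 0.40) and 8 of 8 mural markers (3, median 0.36). Of all genes 3.54% were higher at that level. The part of these cells in this comparison was not tested.

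Pdk4, the kinase of pyruvate dehydrogenase that fasting raises, had the lowest p of these. ConAstro libraries held 93.3, 85.4, 95.6 and 81.5 CPM of Pdk4. SFN-fed ConAstro libraries held 76.5, 68.4, 68.7, 86.3 and 67.5 CPM, so that 1 library reached into the ConAstro range. The difference on the log2 scale was -0.28 ± 0.08 (SE, unadjusted p = 0.00714, adjusted p = 0.762, edgeR) and -0.30 (unadjusted p = 0.00864) without the discordant library.

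Pfkp, platelet type phosphofructokinase, an isozyme of the committed step of glycolysis, was measured at 156, 179, 175 and 165 CPM in ConAstro and at 149, 147, 152, 167 and 140 CPM in SFN-fed ConAstro, with overlap of the groups. The log2 fold change was -0.17 ± 0.06 (adjusted p = 0.762, edgeR). Pdhb, the beta subunit of the first enzyme of pyruvate dehydrogenase, was measured at 83.0, 82.3, 86.0 and 86.8 CPM in ConAstro. SFN-fed ConAstro libraries held 82.3, 77.8, 80.2, 80.2 and 78.9 CPM. The difference was small, -0.09 ± 0.04 on the log2 scale (adjusted p = 0.762, edgeR). Without the discordant library, the ranges of Pdhb did not overlap, as for 2.55% of all genes in that direction. The genes Pfkl and Pfkm of the other phosphofructokinases had log2 fold changes of -0.13 ± 0.07 and -0.12 ± 0.09.

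SFN in cKOAstro mice was compared with control chow in the same genotype. None of the 33 genes passed an adjusted p of 0.05 (edgeR, Benjamini-Hochberg over 16903 genes, 0% of which passed). DESeq2 and limma-voom called none either. An unadjusted p under 0.05 was found for 2 of 33 (10.9% of all genes tested), Taldo1 higher and Pdk1 lower, and 23 of 33 lay above 0 (51.5% of all genes). All 5 NADPH genes lay above 0 with edgeR, with a median log2 fold change of 0.12 against 0.07 for the other 28 genes and 0.01 for all genes tested. The SD between libraries of the mean log2 CPM over the 5 NADPH genes was 0.117, about as large as that median. The 10 other NRF2 targets had a median of 0.05, with 1 higher and 1 lower at an unadjusted p under 0.05. Lower in SFN-fed cKOAstro were 7 of 7 fibroblast markers (1 at that level) and 6 of 8 mural markers (4), beside 5.5% of all genes. All 10 endothelial markers (0 at that level) and all 10 oligodendrocyte markers (2) were higher. So were 11 of the 12 dissociation genes (3), beside 5.38% of all genes. The part of these cells and of dissociation was not tested.

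Taldo1 had the largest difference of the NADPH genes. In cKOAstro it ran from 205 through a median of 241 to 269 CPM, and in ConAstro it was measured at 231, 258, 239 and 237 CPM. In SFN-fed cKOAstro it ran from 217 through 290 to 434 CPM, with the 434 CPM in replicate 4. The groups overlapped, and 6 of 7 SFN-fed cKOAstro libraries stood above every cKOAstro library. The log2 fold change was 0.32 ± 0.12 (SE, unadjusted p = 0.0202, adjusted p = 0.459, edgeR). It was 0.21 without SFN-fed cKOAstro replicate 4, which moves it by over 1.5 times, and 0.40 without replicate 3. With edgeR it was 0.19 (unadjusted p = 0.122) among the numbered libraries alone and 0.31 (unadjusted p = 0.0366) without the discordant library. The numbered libraries of both groups shared no name prefix and include the discordant library.

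Oligodendrocyte markers moved with Taldo1. In each of the 4 groups the library with the highest Taldo1 level had the highest summed level of the 10 oligodendrocyte markers, and in SFN-fed cKOAstro this was replicate 4 with 61050 CPM of markers, against 26535 CPM in replicate 3, which had the lowest Taldo1 level. The median sum was 36077 CPM in SFN-fed cKOAstro, 30089 CPM in cKOAstro, 32161 CPM in SFN-fed ConAstro and 29159 CPM in ConAstro. The part of these cells in the Taldo1 difference was not tested.

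The other NADPH genes differed less between the diets in cKOAstro mice. Tkt ran from 336 through 360 to 426 CPM in cKOAstro and from 337 through 416 to 507 CPM in SFN-fed cKOAstro, again highest in replicate 4 (log2 fold change 0.14 ± 0.09 SE, adjusted p = 0.531, edgeR). Without that library the log2 fold change of Tkt was 0.08. Pgd ran from 57.3 through 58.5 to 62.5 CPM and from 55.8 through 64.7 to 79.0 CPM (0.12 ± 0.07, adjusted p = 0.505, edgeR). The groups overlapped for both genes. The log2 fold changes of G6pdx and Me1 were 0.08 ± 0.08 and 0.06 ± 0.11, each within the spread between libraries. G6pdx had 0.03 without SFN-fed cKOAstro replicate 4 and Me1 0.01 without replicate 1, and limma-voom put Me1 at -0.04.

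**Figure D2:**
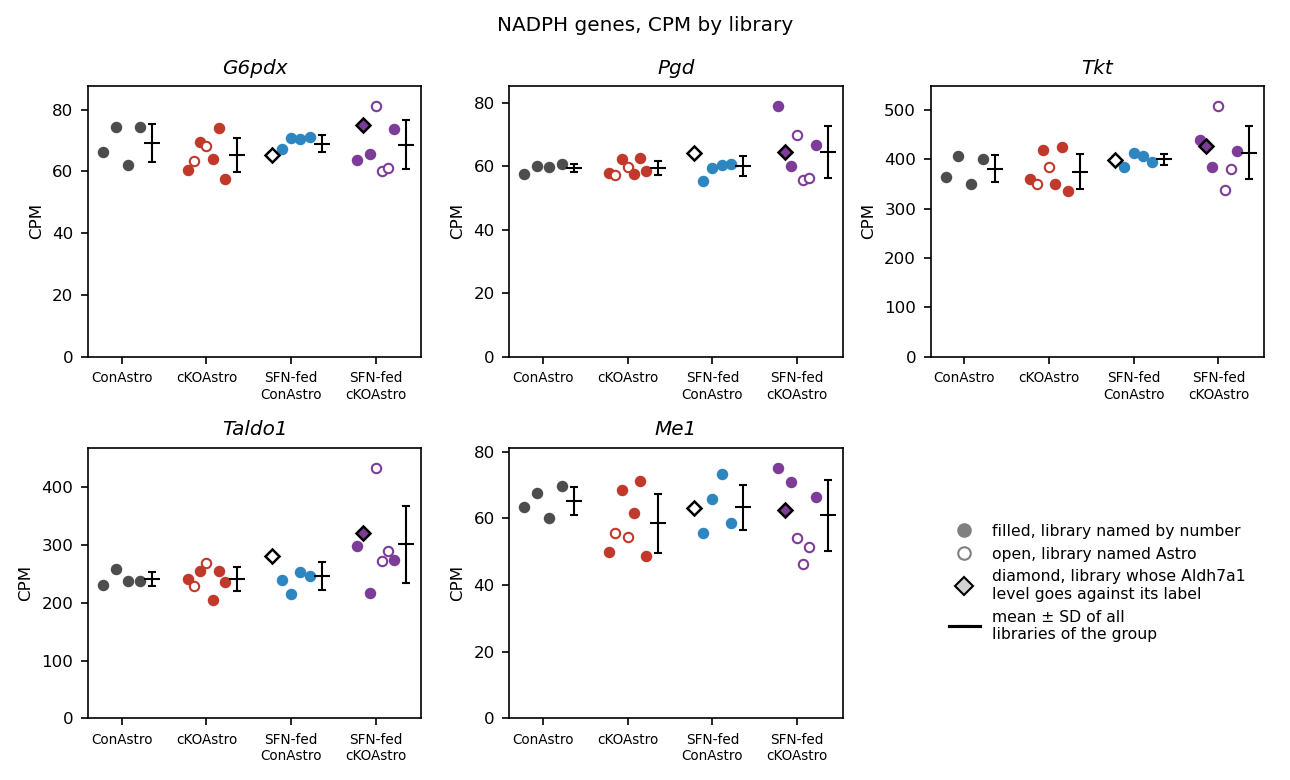
CPM of the 5 NADPH genes in each library by group; open marks are libraries of the Astro series, diamonds the libraries whose Aldh7a1 level went against the label, and bars the mean ± SD of the group. The groups overlap for all 5 genes, and 1 SFN-fed cKOAstro library stands at 434 CPM of Taldo1.

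Pdk1, the pyruvate dehydrogenase kinase that hypoxia raises, was lower in SFN-fed cKOAstro. Libraries of cKOAstro ran from 26.9 through a median of 33.9 to 44.9 CPM of Pdk1. Those of SFN-fed cKOAstro ran from 23.8 through 27.3 to 34.9 CPM. The ranges overlapped, and in each group the Astro libraries, 2 in cKOAstro and 3 in SFN-fed cKOAstro, were the lowest. The log2 fold change was -0.29 ± 0.11 (SE, unadjusted p = 0.0182, adjusted p = 0.459, edgeR), -0.28 (unadjusted p = 0.0327) without the discordant library and -0.32 among the numbered libraries alone. Diet and name prefix cannot be told apart in those numbered libraries, which include the discordant library.

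Genotype under SFN compared the knockout with its control on the SFN diet. None of the 33 genes passed an adjusted p of 0.05 by edgeR (0% of 16672 genes), and 5 of 33 had an unadjusted p under 0.05 (20.3% of all genes tested), a share of the 33 below that of all genes. Higher in SFN-fed cKOAstro were 4 genes, Pdhb, Gapdh, Aldoa and Pdk2 (11.4% of all genes were higher), and lower was 1, Pdk1 (8.89%). Without both discordant libraries 1 of 33 remained at that level, Pdhb (14.9% of all genes). Leaving out 1 library at a time gave 1 to 6 (14.3% to 27.8% of all genes). The count was 1 when SFN-fed ConAstro replicate 2 or SFN-fed cKOAstro replicate 2 was left out. DESeq2 called 1 of 33, Pdhb, and limma-voom with sample quality weights called 6, beside 4398 of 16672 genes in all. Of the 33 genes 20 lay above 0, beside 51.2% of all genes, and the median log2 fold change was 0.04 over the 33 genes beside 0.01 over all genes. Among the numbered libraries alone, with the discordant library of SFN-fed cKOAstro among them, 25 of 33 lay above 0. At an unadjusted p under 0.05 were 7, all higher, beside 12.4% of all genes in either direction. Markers of vessel and connective tissue cells were lower in SFN-fed cKOAstro beside these genes. Lower were 10 of 10 endothelial markers (5 at an unadjusted p under 0.05, median log2 fold change -0.75), 7 of 7 fibroblast markers (6, median -0.75) and 7 of 8 mural markers (4, median -0.45). The 10 endothelial markers summed to 536 to 872 CPM in SFN-fed ConAstro and 206 to 873 CPM in SFN-fed cKOAstro, the fibroblast markers to 246 to 344 and 100.2 to 311 CPM, and the mural markers to 1309 to 2075 and 756 to 1809 CPM. Also lower were 10 of 10 microglial markers (0 at an unadjusted p under 0.05, median -0.49) and 7 of 8 markers of oligodendrocyte precursors (1, median -0.38). Higher were 9 of 10 oligodendrocyte markers (1, median 0.26). The part of all these cells in the differences of this comparison was not tested.

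Pdhb was the one gene of the 33 whose libraries did not overlap here. SFN-fed cKOAstro libraries ran from 86.9 through a median of 89.9 to 108 CPM of Pdhb. The highest of the 5 SFN-fed ConAstro libraries held 82.3 CPM. All 7 libraries thus stood above all 5, as for 0.864% of all genes in that direction. These groups are by label and include both discordant libraries. The 82.3 CPM is that of the discordant SFN-fed ConAstro library, and the discordant SFN-fed cKOAstro library held 86.9 CPM or more. Grouped by Aldh7a1 level instead of label, the ranges would thus overlap. Without both discordant libraries the ranges did not overlap either, as for 3.15% of all genes. The log2 fold change was 0.21 ± 0.06 (SE, unadjusted p = 0.00345, adjusted p = 0.195, edgeR), 0.22 (unadjusted p = 0.0106) without both discordant libraries and 0.17 without SFN-fed cKOAstro replicate 1. DESeq2 gave an adjusted p of 0.0364 and limma-voom 0.0136, so the call depends on the tool. SFN-fed ConAstro lay lowest and SFN-fed cKOAstro highest of the 4 group means of Pdhb, which were 84.5 ± 2.19 CPM in ConAstro (SD, n = 4), 86.7 ± 6.63 CPM in cKOAstro (SD, n = 7), 79.9 ± 1.68 CPM in SFN-fed ConAstro (SD, n = 5) and 92.7 ± 7.28 CPM in SFN-fed cKOAstro (SD, n = 7). Of the other subunits of the complex, Pdhx, which anchors the dihydrolipoamide dehydrogenase Dld, had 0.16 ± 0.07 (unadjusted p = 0.0377, adjusted p = 0.229, edgeR) and Dld 0.08 ± 0.07, both named after their values were seen. Pdha1, the alpha subunit of the same enzyme, and Dlat, the second enzyme of the complex, had log2 fold changes of 0.01 ± 0.08 and -0.04 ± 0.07.

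The kinases of the complex went in different directions. Pdk2, the kinase with the highest median per length of the 3 (57.9 CPM per kb of exon), was measured at 153, 156, 183, 194 and 170 CPM in SFN-fed ConAstro. In SFN-fed cKOAstro it ran from 164 through 189 to 239 CPM, with overlap. On the log2 scale Pdk2 differed by 0.23 ± 0.10 (unadjusted p = 0.0405, adjusted p = 0.234, edgeR), and 0.15 (unadjusted p = 0.187) without both discordant libraries. Pdk1 was measured at 33.3, 39.2, 37.9, 27.7 and 30.8 CPM in SFN-fed ConAstro, and its log2 fold change was -0.24 ± 0.11 (unadjusted p = 0.0424, adjusted p = 0.236, edgeR). With edgeR on the numbered libraries alone the log2 fold changes were 0.13 for Pdk2 (unadjusted p = 0.297) and -0.15 for Pdk1 (unadjusted p = 0.281). Pdk4 ran from 65.6 through 77.4 to 121 CPM in SFN-fed cKOAstro and had 0.18 ± 0.13, not past either threshold.

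Aldoa and Gapdh were the glycolytic genes with an unadjusted p under 0.05 in this comparison. Aldoa was measured at 847, 812, 823, 898 and 853 CPM in SFN-fed ConAstro. In SFN-fed cKOAstro it ran from 892 through 954 to 1057 CPM, so that the groups overlapped by 1 SFN-fed ConAstro library. On the log2 scale the difference was 0.16 ± 0.07 (adjusted p = 0.229, edgeR), and 0.14 (unadjusted p = 0.121) without both discordant libraries, of which that of SFN-fed cKOAstro had the highest level. Gapdh was measured at 572, 531, 589, 642 and 572 CPM in SFN-fed ConAstro and from 601 through 659 to 735 CPM in SFN-fed cKOAstro, again overlapping by 1 SFN-fed ConAstro library, with a log2 fold change of 0.19 ± 0.08 (adjusted p = 0.219, edgeR) and of 0.16 (unadjusted p = 0.108) without the same libraries. Reads of Gapdh can include some of Iffo1, which overlaps it on the other strand.

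Other glycolytic genes passed neither threshold with all libraries. Pgk1, phosphoglycerate kinase, an ATP-making step, was measured at 119, 110, 113, 122 and 109 CPM in SFN-fed ConAstro. In SFN-fed cKOAstro it ran from 111 through 124 to 143 CPM, and the difference was 0.13 ± 0.07 on the log2 scale (adjusted p = 0.293, edgeR). Pfkl, liver type phosphofructokinase, was measured at 135, 123, 119, 139 and 115 CPM in SFN-fed ConAstro and ran from 116 through 141 to 164 CPM in SFN-fed cKOAstro (0.12 ± 0.08, adjusted p = 0.411, edgeR). Both groups of libraries overlapped for both genes. Among the numbered libraries alone the log2 fold changes were 0.19 for Pgk1 and 0.24 for Pfkl (unadjusted p = 0.0188 and 0.0162, edgeR). These include the discordant library of SFN-fed cKOAstro. Pfkfb3, the enzyme that makes the activator of phosphofructokinase, lay the other way, from 77.2 to 80.2 CPM in SFN-fed ConAstro and from 49.7 through 66.7 to 88.4 CPM in SFN-fed cKOAstro. The latter group thus reached both below and above the former (-0.22 ± 0.14, adjusted p = 0.357, edgeR). Hk2 had -0.46 ± 0.39.

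**Figure D3:**
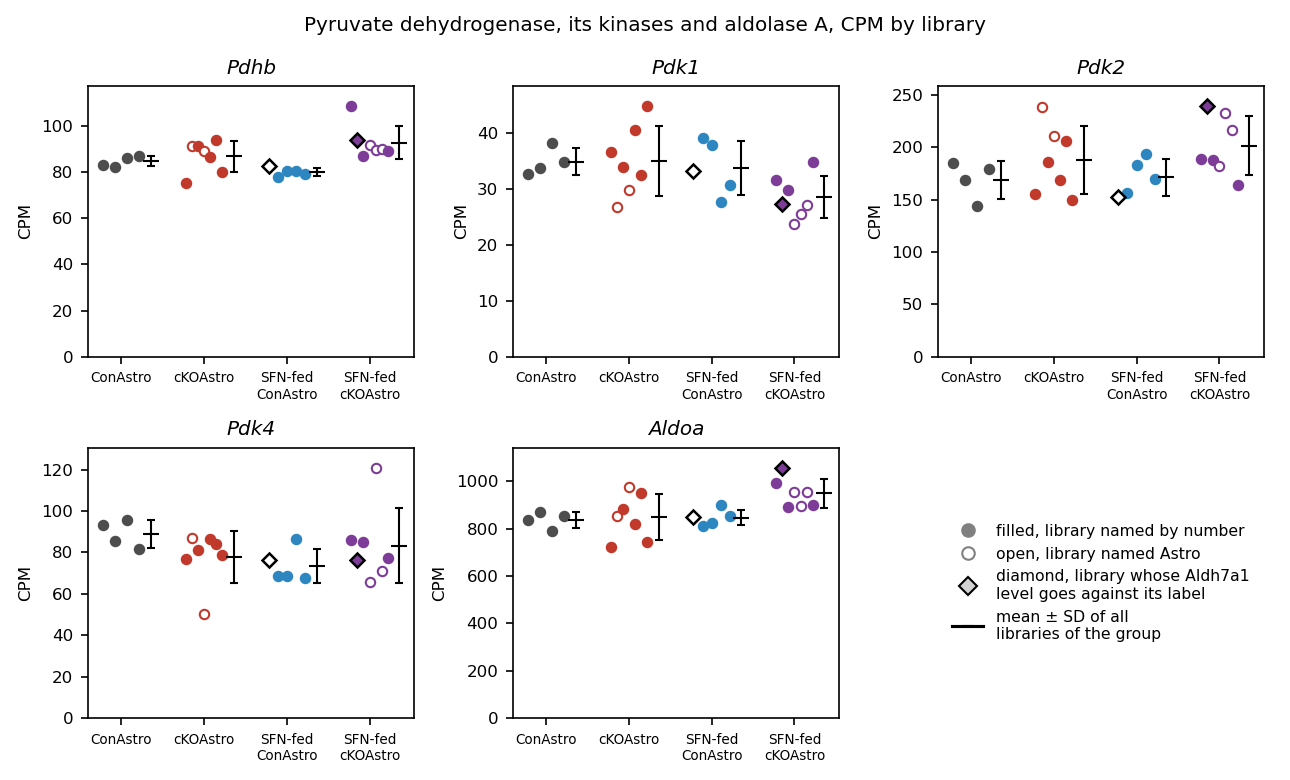
CPM of Pdhb, 3 pyruvate dehydrogenase kinases and Aldoa in each library by group; marks and bars are as in the plot of the NADPH genes. All 7 SFN-fed cKOAstro libraries stand above the 5 SFN-fed ConAstro libraries for Pdhb, and the groups overlap for the other 4 genes in that comparison.

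SFN-fed cKOAstro was also set against ConAstro on control chow, which asks how far the treated knockout differs from the untreated control. None of the 33 genes passed an adjusted p of 0.05 (edgeR, 0% of 16753 genes), and 1, Pdk1, had an unadjusted p under 0.05 (8.67% of all genes tested). DESeq2 called none and limma-voom called 2, Pdk1 and Pfkfb3. Above 0 lay 14 of 33 (47.6% of all genes), and 26 of 33 among the numbered libraries alone, which include the discordant library. ConAstro libraries held 32.8, 33.8, 38.3 and 34.9 CPM of Pdk1, and the log2 fold change was -0.30 ± 0.10 (unadjusted p = 0.0113, adjusted p = 0.557, edgeR). With edgeR it was -0.28 (unadjusted p = 0.0244) without the discordant library, and -0.20 (unadjusted p = 0.0690) among the numbered libraries alone. Aldoa and Pdhb were higher in all 7 SFN-fed cKOAstro libraries than in all 4 ConAstro libraries, as were 1% of all genes. Their log2 fold changes were 0.17 ± 0.08 and 0.12 ± 0.07, with unadjusted p of 0.0506 and 0.103. Pfkfb3 was measured at 82.5, 87.8, 73.7 and 92.6 CPM in ConAstro, and its log2 fold change was -0.33 ± 0.16 (unadjusted p = 0.0608, adjusted p = 0.557, edgeR). This comparison shares its libraries with those above and is not a further sample.

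The difference between the genotypes in the response to SFN was tested as an interaction over the 4 groups. None of the 33 genes passed an adjusted p of 0.05 (edgeR, 0% of 17302 genes) and 1, Pdhb, had an unadjusted p under 0.05 (7.32% of all genes tested). Its interaction was 0.18 ± 0.08 on the log2 scale (unadjusted p = 0.0424, adjusted p = 0.674, edgeR), and 0.19 without both discordant libraries. That of Pdk4 was 0.37 ± 0.19 and that of Pfkl 0.22 ± 0.12 (unadjusted p = 0.0671 and 0.0689, edgeR). DESeq2 and limma-voom called none of the 33. In all, 24 of 33 genes lay above 0 (49.4% of all genes), the 5 NADPH genes among them, with a median interaction of 0.10, which was also the median of the other 28 genes, beside -0.00 over all genes tested. The median of the 28 was 0.05 without SFN-fed ConAstro replicate 2, and that of the NADPH genes 0.06 without cKOAstro replicate 7. Among the numbered libraries alone 27 of 33 lay above 0 and 6 had an unadjusted p under 0.05 (10.2% of all genes). The discordant library of SFN-fed cKOAstro is one of those libraries.

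**Figure D4:**
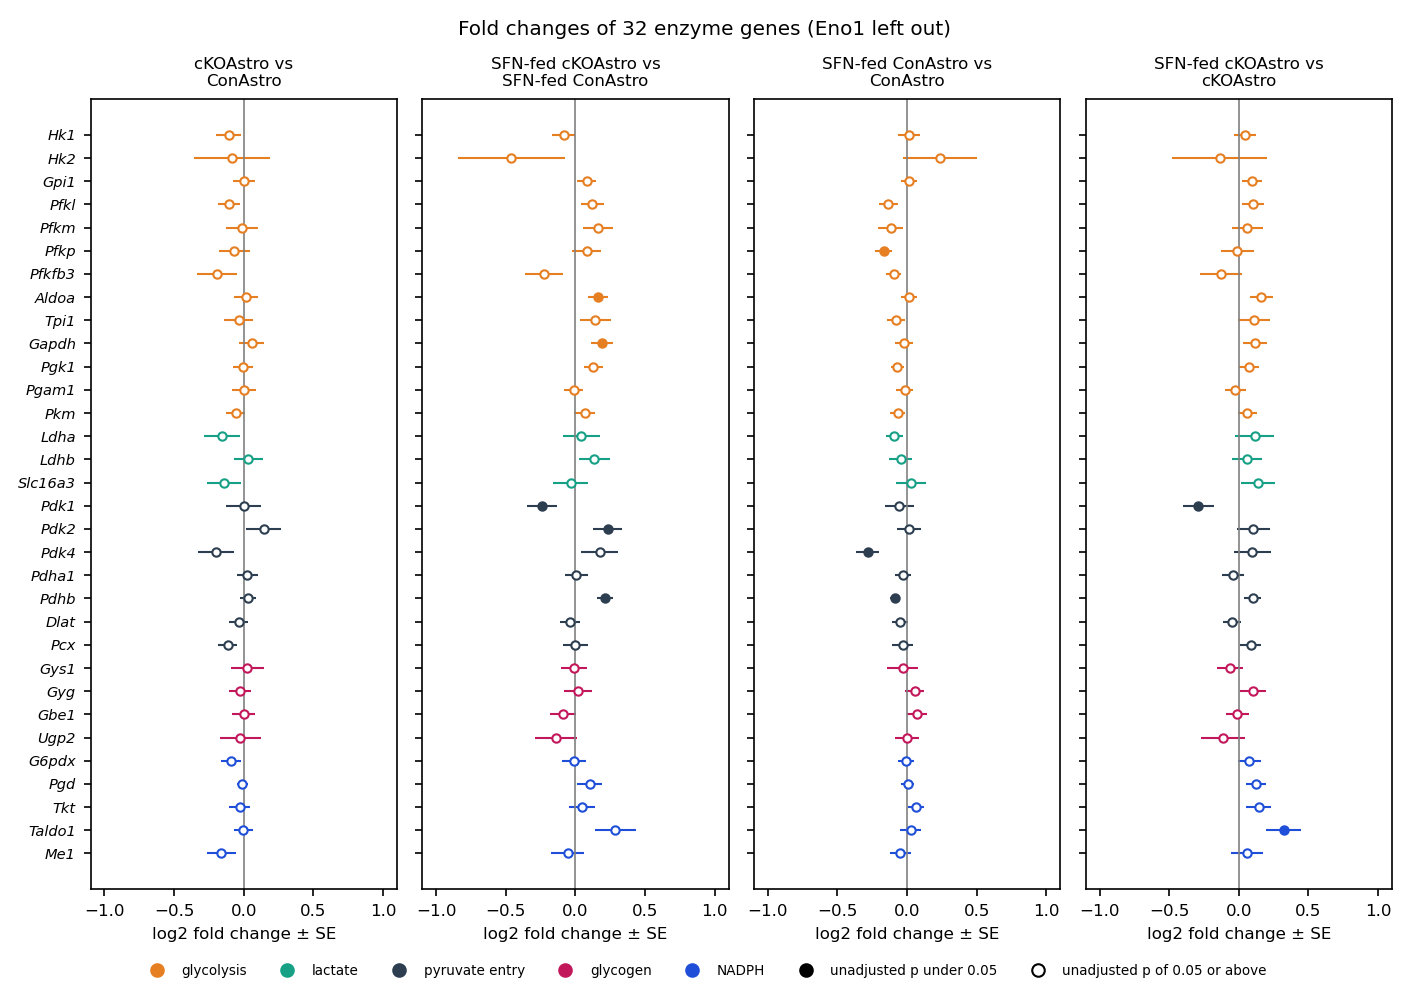
Log2 fold change ± SE of 32 genes (Eno1 left out) in the 4 comparisons of genotype and of diet, with groups of enzymes in color and filled marks where the unadjusted p was under 0.05. Filled marks are few, none passed the adjusted p of 0.05 with edgeR, and Hk2 has the widest errors.

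Glycogen genes passed neither threshold. Gys1 (glycogen synthase), Gyg (glycogenin, which primes the chain), Gbe1 (the branching enzyme) and Ugp2 (which makes UDP-glucose) had log2 fold changes between -0.15 and 0.10 over the 5 comparisons of 2 groups, with no unadjusted p under 0.05. Gys1 (61.7 CPM) is uncertain, since Ruvbl2 (56.3 CPM) overlaps it on the other strand and the library kit did not mark strand. The same holds for G6pdx (67.3 CPM) and Ikbkg (41.1 CPM). Genes on the other strand also overlap Pfkp (157 CPM) and Pcx (192 CPM), namely Pitrm1 (34.5 CPM) and Lrfn4 (42.9 CPM). The lactate genes Ldha, Ldhb and Slc16a3 had no unadjusted p under 0.05 in any comparison, and their log2 fold changes lay between -0.16 and 0.14 over the same 5 comparisons.

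The other genes of these pathways were read from a list of 61, of which 57 or 58 had enough counts to be tested. None passed an adjusted p of 0.05 with edgeR. At an unadjusted p under 0.05, 1 was higher and 0 lower for genotype on control chow (1.71% and 2.03% of all genes). For genotype under SFN 7 were higher and 3 lower (11.4% and 8.89% of all genes). For SFN in ConAstro 1 was higher and 4 lower (3.54% and 3%), and for SFN in cKOAstro 1 was higher and 2 lower (5.38% and 5.5%). The lowest p was that of Idh2, isocitrate dehydrogenase 2, which makes NADPH in the mitochondrion. Libraries of ConAstro held 129, 140, 141 and 139 CPM of Idh2, and those of SFN-fed ConAstro 145, 120, 149, 127 and 124 CPM. Levels ran from 136 through 162 to 205 CPM in cKOAstro and from 145 through 178 to 200 CPM in SFN-fed cKOAstro. The knockout groups thus stood higher on both diets, with a small overlap in each. The log2 fold change was 0.25 ± 0.09 on control chow (unadjusted p = 0.0178, adjusted p = 0.981, edgeR) and 0.39 ± 0.09 under SFN (unadjusted p = 0.000587, adjusted p = 0.195, edgeR), or 0.41 without both discordant libraries.

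H6pd, the counterpart of G6pdx in the endoplasmic reticulum, was measured at 18.6, 16.9, 14.5 and 19.4 CPM in ConAstro and at 21.3, 25.8, 22.3, 20.8 and 20.5 CPM in SFN-fed ConAstro. The 2 groups did not overlap, as for 1.01% of all genes in that direction (2.47% without the discordant library). The log2 fold change was 0.35 ± 0.10 (unadjusted p = 0.00613, adjusted p = 0.762, edgeR), or 0.36 without the discordant library. For genotype under SFN it was -0.47 ± 0.18 (unadjusted p = 0.0208, edgeR), or -0.46 without both discordant libraries (unadjusted p = 0.0528, edgeR), and the interaction was -0.61 ± 0.22 (unadjusted p = 0.0118, adjusted p = 0.673, edgeR). Pfkfb2, a relative of Pfkfb3, lay at 67.3, 73.3, 57.5 and 72.7 CPM in ConAstro and between 44.1 and 63.9 CPM in SFN-fed cKOAstro. Its log2 fold change was -0.38 ± 0.11 (unadjusted p = 0.00384, adjusted p = 0.557, edgeR), or -0.34 without the discordant library. The 12 listed genes that hypoxia raises had 10 above 0 (51.2% of all genes) and 5 with an unadjusted p under 0.05, all higher (11.4% of all genes), for genotype under SFN, with a median log2 fold change of 0.18. For SFN in ConAstro 2 of the 12 lay above 0 (48.4% of all genes) and 3 were lower at that level (3% of all genes), with a median of -0.12, and for genotype on control chow none had an unadjusted p under 0.05.

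Levels of several of the 33 genes correlated with summed marker transcripts. The log2 CPM of each gene other than Eno1 was set against the log2 of the summed markers of astrocytes, oligodendrocytes and microglia over the 23 libraries, 96 relations in all, after the values of Hk2 and Taldo1 had been seen. The p-values came from 100000 permutations of the libraries and were adjusted by Benjamini-Hochberg over the 96 relations. All values of 1 library share its total count and its mixture of cells.

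Hk2, the inducible hexokinase, followed the microglial markers most closely (Pearson's r = 0.940, Spearman's rho = 0.961, both permutation p = 1e-05, the smallest these can give, adjusted p = 0.00016 and 0.00048). The r was 0.951 without the 2 libraries farthest from the median of the markers, 0.964 among 17 numbered libraries and 0.904 among 6 Astro libraries. In each of the 4 groups the library with the highest Hk2 level had the highest summed microglial markers, as in SFN-fed cKOAstro replicate 7, with 27.3 CPM of Hk2 and 3742 CPM of markers. Of the 7 SFN-fed cKOAstro libraries 4 held 7.09 to 9.13 CPM of Hk2 and 348 to 611 CPM of microglial markers. The Hk2 differences between groups stand beside median sums of 1791 CPM in ConAstro, 1403 CPM in cKOAstro, 2038 CPM in SFN-fed ConAstro and 611 CPM in SFN-fed cKOAstro.

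Pdk1 followed the microglial markers across libraries (r = 0.792, rho = 0.781, permutation adjusted p = 0.00016 and 0.0011), with r = 0.745 without the 2 farthest libraries, 0.682 among numbered and 0.702 among Astro libraries. Pdk2 ran the other way (r = -0.805, rho = -0.743, permutation adjusted p = 0.00016 and 0.00156), with r = -0.755, -0.676 and -0.899 in the same order. The Pdk1 and Pdk2 differences of SFN-fed cKOAstro from the other groups therefore came with a lower median of microglial markers, and their part in the result was not tested. Pfkfb3 had r = 0.743 with the microglial markers (rho = 0.512, permutation adjusted p = 0.00106 and 0.0771), with r = 0.672 without the 2 farthest libraries, 0.498 among numbered and 0.752 among Astro libraries, and the part of these markers in its differences was not tested either. Pdk1 and Hk2 also ran against the oligodendrocyte markers (r = -0.703 and -0.592).

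Taldo1 followed the oligodendrocyte markers (r = 0.930, rho = 0.834, permutation adjusted p = 0.00016 and 0.00048), with r = 0.83 without the 2 farthest libraries, 0.822 among numbered and 0.986 among Astro libraries. The astrocyte markers were followed by 8 genes with both adjusted permutation p under 0.05, namely Hk1, Pfkm, Pgam1, Pdha1, Dlat, Gys1, Ugp2 and Me1, with r between 0.537 and 0.840, and between 0.497 and 0.769 without the 2 farthest libraries. Dlat (0.840) and Gys1 (0.790) were the closest. Among the 6 Astro libraries r was 0.0524 for Me1, 0.238 for Hk1 and -0.201 for Ugp2, and from 0.529 to 0.953 for the other 5 genes. An r above 0.5 was found for 8 of 32 genes with astrocyte markers (10.2% of all genes), 2 of 32 with oligodendrocyte markers (13.6%) and 4 of 32 with microglial markers (12.1%). Below -0.5 the counts were 1 of 32 (6.63% of all genes), 3 of 32 (12.1%) and 2 of 32 (10.8%) in the same order.

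**Figure D5:**
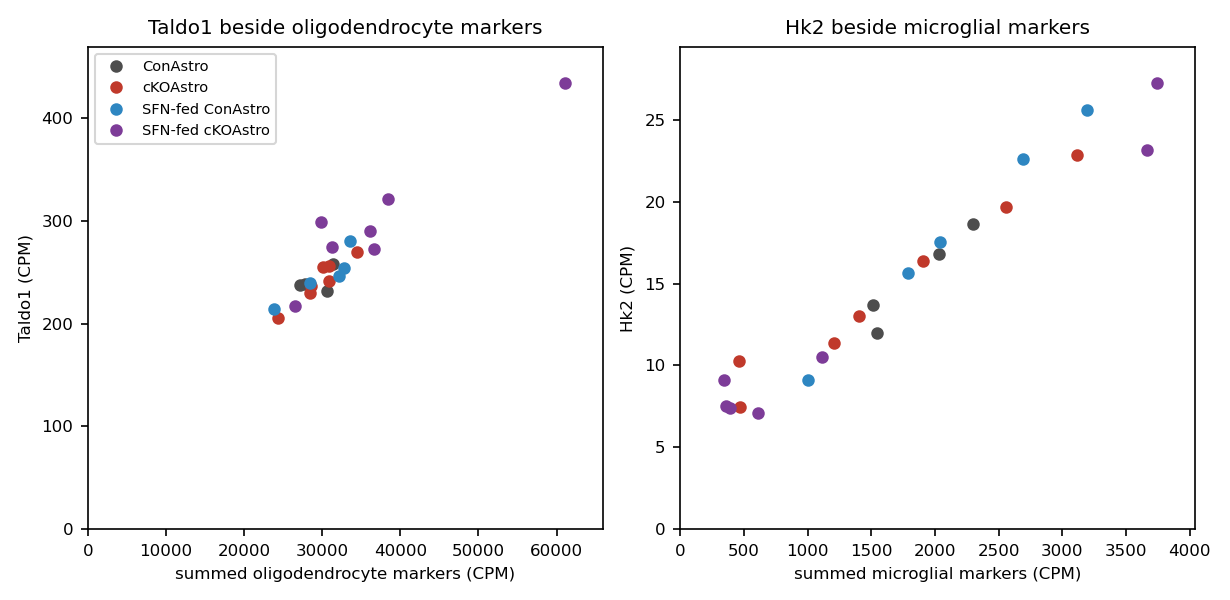
Left, CPM of Taldo1 against the summed oligodendrocyte markers; right, CPM of Hk2 against the summed microglial markers, also in CPM, with 1 point per library and groups in color. In each group the library with the highest gene level also has the highest marker sum.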

How the data were processed

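Polyadenylated RNA of ACSA-2 cells was made into 23 paired-end libraries with a kit that does not mark strand. The authors checked reads with FastQC, aligned them to mm10 with STAR and deposited raw read counts by gene symbol, with no normalization and no pooling of libraries. Versions, the annotation and the strand setting of the count were not given in the sources used here. From these counts, filterByExpr (minimum count 10, minimum total 15) and TMM scaling preceded the two-sided quasi-likelihood test of edgeR 4.0.16 (limma 3.58.1, R 4.3.3). Each pair of groups was fitted on its own libraries, and the interaction used the 4 groups together. Adjustment was by Benjamini-Hochberg over all genes tested (threshold 0.05), and SE is the log2 fold change over the root of the moderated F. Levels are CPM, and log2 CPM used a prior count of 2. No libraries of a group were alike within counting noise (lowest chi-square per degree of freedom 42.4). Per the methods of the study, each library stands for 1 animal. All 33 genes passed the filter in every comparison.

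Genes were described where they belonged to the 5 NADPH genes or had 1 of the 10 lowest p-values of the other members over the 6 comparisons, and 3 other pathway genes were named by lowest p. The genes, lists and tests were chosen with earlier results of these data known, and the comparison with marker sums after their values were seen. Exon lengths and overlaps came from the GRCm38 annotation, and promoters from RefSeq (GRCm38.p6). Alternatives tried were no filter beyond 1 count, relative log expression (RLE) scaling, DESeq2 1.42.0, limma-voom weighted by sample quality, the replicate number as a block, the name series as a covariate, numbered libraries alone, all 4 groups in 1 fit, leaving out both discordant libraries and leaving out each library in turn. Scripts were tested on simulated data with known changes.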

Additional observations from a re-analysis of the deposited data

Results flagged for a closer look

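A library stood apart from the others of its group, by the ratio of its gap from the nearest library to the range of the group (Dixon's test at the 95% level), for 7 of 136 combinations of gene and group, and chance gives about 1 in 20. For Aldh7a1 the library labelled SFN-fed ConAstro replicate 1 lay at 55.7 CPM, with the next at 177 CPM. Also for Aldh7a1, SFN-fed cKOAstro replicate 2 lay at 222 CPM, with the next at 56.5 CPM. For Pfkl, ConAstro replicate 1 lay at 123 CPM below the next at 142 CPM. For Dlat, ConAstro replicate 4 lay at 77.8 CPM above the next at 70.2 CPM. For Pdk4, cKOAstro replicate 4 lay at 50.2 CPM below the next at 76.9 CPM, and SFN-fed cKOAstro replicate 5 at 121 CPM above the next at 86.0 CPM, and both are of the Astro series. For Pdhb, SFN-fed cKOAstro replicate 1 lay at 108 CPM above the next at 93.7 CPM, and the other 6 libraries of that group still stood above all SFN-fed ConAstro libraries.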

How the results depend on the processing

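With edgeR, none of the 33 genes passed the adjusted p of 0.05 in any of the 6 comparisons under RLE scaling, no filter, the name series as a covariate, numbered libraries alone, all 4 groups in 1 fit (5 comparisons) or without the discordant libraries, and leaving out each library in turn gave 0 to 0 calls. For genotype under SFN, DESeq2 called 1 gene (Pdhb, log2 fold change 0.22, adjusted p = 0.0364) and limma-voom 6 (Pdhb, Pdk2, Pfkfb3, Hk2, Pdk1 and Aldoa), where limma-voom called 4398 of all genes. For SFN-fed cKOAstro against ConAstro, limma-voom called 2 (Pdk1 and Pfkfb3), beside 656 of all genes. Over all genes edgeR called 4 for genotype on control chow and 0 in the other comparisons, where DESeq2 called 8 for the first, 250 for genotype under SFN, 24 for SFN in ConAstro, 15 for SFN in cKOAstro, 8 for SFN-fed cKOAstro against ConAstro and 3 for the interaction. Me1 turned from 0.06 to -0.044 for SFN in cKOAstro with limma-voom (adjusted p = 0.809). The cause of these changes was not tested. Leaving out SFN-fed cKOAstro replicate 4 took the log2 fold change of Taldo1 from 0.32 to 0.21. Leaving out SFN-fed cKOAstro replicate 3 gave 701 calls among all genes for genotype under SFN, none of them among the 33.

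The groups share replicate numbers in the labels. With the replicate block, 0 of the 33 genes were called in each comparison, and of all genes 1 was called for genotype on control chow and 0 in the others. The numbers did not pair the libraries, since the correlation of the deviations of same-numbered libraries was over 0.1 in 0 of 4, 1 of 5, 2 of 4, 2 of 7 and 1 of 4 pairs of the 5 comparisons. Apart from Eno1 the genes had 380 or more counts in every library, and the part of depth in the spread between libraries was not tested.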
